A study of Mus musculus with 30 samples.

Results

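The genes described here are 10 transcription factor genes of the mouse that take part in the making of fat cells: the C/EBP genes Cebpa, Cebpb and Cebpd, the KLF genes Klf4, Klf5 and Klf15, and the NFI genes Nfia, Nfib, Nfic and Nfix. Chromatin accessibility was measured by ATAC-seq, in which a transposase cuts open DNA and leaves sequencing adapters there, and the deposited tables give read counts in consensus windows. A window was assigned to a member when the nearest protein-coding transcription start site within 50 kb (GRCm38, GENCODE annotation) was one of that gene. This gave 233 of the 305931 windows of the 24 h table and 294 of the 369846 windows of the 4 h table. Of these, 17 and 16 windows contained a start site, 124 and 163 lay in introns, and 78 and 101 lay between genes. Since assignment was by distance, a window may act on another gene, and several windows of Nfia and Nfib lie far inside these long genes.

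At 24 h the groups were untreated mouse marrow-derived mesenchymal stem cells (MSCs), MSCs treated with CK666, which inhibits the Arp2/3 complex that starts actin branches, and MSCs treated with cytochalasin D (CytoD), which blocks the growth of actin filaments. At 4 h the groups were MSCs and NIH3T3 cells, an embryonic mouse fibroblast line, each untreated or treated with CK666. Each of the 7 groups had 3 libraries, and the labels list all cells, NIH3T3 included, as male and C57BL/6J with no genetic change. NIH3T3 is known as a line from Swiss mice, so that this strain entry is in doubt for it, and it was not checked here. The MSCs came as a single pool of marrow from several animals, so that they stand for that pool, and no source used here says that replicates were separate cultures, so that p-values measure the spread between libraries, which may be technical. The study asked how actin in the nucleus bears on chromatin and on the choice between fat and bone fates.

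In adipogenesis, C/EBPβ and C/EBPδ are switched on within hours of the inducing signal and then activate Cebpa and Pparg, whose products hold the fat cell state. KLF4 acts early, upstream of Cebpb, while KLF5 and KLF15 act later and favour Pparg and fat cell genes. NFI proteins bind as dimers, often at the same enhancers as C/EBP factors and PPARγ, and NFIA in particular opens chromatin at brown fat genes.

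Total counts ran from 14071301 to 22352180 per library at 24 h and from 14496058 to 34979833 at 4 h, with the shallowest 4 h library among the NIH3T3 cells with CK666. Replicates of a group had rank correlations of 0.872 to 0.916 at 24 h and 0.880 to 0.952 at 4 h. Start sites of stromal marker genes had windows for 4 of 9 genes at 24 h and 6 of 9 at 4 h, with summed levels of 822 to 918 in MSC controls and 617 to 639 in NIH3T3 controls at 4 h. By gene the direction was mixed. Pdgfra, Pdgfrb and Cxcl12 were higher in MSC than in NIH3T3 controls at 4 h, with Cxcl12 means of 231 and 64.5. Vcam1 (173 against 215) and Lepr (5.5 against 16.1) were lower. Thy1, a stromal surface marker, was near 0 in the MSC controls (0.251 ± 0.434, SD, n = 3) and stood at 26.1 ± 5.51 in NIH3T3 controls. Of 9 haematopoietic markers 4 had a start-site window, and the defining genes Ptprc, Spi1 and Itgam had none. Levels here and below are reads per window after TMM normalisation, scaled to 10000000 reads per library, and are given in the order of replicates 1, 2 and 3.

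The 6 stretches of 240 bases from the centres of windows that carry the results below are printed here on the plus strand of GRCm38, with capitals for matches on either strand to the C/EBP letters TTGCNNAA or the AP-1 letters TGANTCA. The first, from just downstream of Cebpa, and the second, inside the Klf15 start-site window, belong to windows that gained accessibility with CK666 at 4 h in MSCs and in NIH3T3 cells, respectively. The third belongs to an Nfia intron window that lost accessibility in NIH3T3 cells. The last 3 come from windows downstream of Cebpb, upstream of Klf4 and inside Nfia that gained accessibility with CK666 at 24 h, and hold neither motif in these bases.
Cebpa, chr7:35122728-35122967: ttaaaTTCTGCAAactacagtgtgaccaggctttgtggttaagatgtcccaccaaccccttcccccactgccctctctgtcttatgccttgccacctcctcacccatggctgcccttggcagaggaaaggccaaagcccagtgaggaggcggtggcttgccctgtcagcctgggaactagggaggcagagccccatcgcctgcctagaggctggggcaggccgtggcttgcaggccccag
Klf15, chr6:90466156-90466395: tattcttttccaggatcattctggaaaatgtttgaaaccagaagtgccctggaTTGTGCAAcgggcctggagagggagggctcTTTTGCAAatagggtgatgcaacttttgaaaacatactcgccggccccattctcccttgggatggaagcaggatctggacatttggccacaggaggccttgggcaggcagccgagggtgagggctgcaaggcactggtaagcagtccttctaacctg
Nfia, chr4:97831665-97831904: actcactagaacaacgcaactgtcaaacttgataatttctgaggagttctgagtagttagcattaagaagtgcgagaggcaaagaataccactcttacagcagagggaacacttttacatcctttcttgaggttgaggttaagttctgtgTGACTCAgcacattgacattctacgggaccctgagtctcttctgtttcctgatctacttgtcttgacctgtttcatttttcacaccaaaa
Cebpb, chr2:167717538-167717777: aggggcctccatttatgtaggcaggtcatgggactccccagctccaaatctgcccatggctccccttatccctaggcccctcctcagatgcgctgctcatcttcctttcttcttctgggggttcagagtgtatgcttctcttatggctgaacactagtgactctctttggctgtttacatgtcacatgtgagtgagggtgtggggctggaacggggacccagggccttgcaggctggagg
Klf4, chr4:55534571-55534810: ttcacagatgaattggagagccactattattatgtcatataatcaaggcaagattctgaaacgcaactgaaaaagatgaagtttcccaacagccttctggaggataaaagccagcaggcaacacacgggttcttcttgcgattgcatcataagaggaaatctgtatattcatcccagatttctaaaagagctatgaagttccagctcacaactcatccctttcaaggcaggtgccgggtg
Nfia, chr4:97925730-97925969: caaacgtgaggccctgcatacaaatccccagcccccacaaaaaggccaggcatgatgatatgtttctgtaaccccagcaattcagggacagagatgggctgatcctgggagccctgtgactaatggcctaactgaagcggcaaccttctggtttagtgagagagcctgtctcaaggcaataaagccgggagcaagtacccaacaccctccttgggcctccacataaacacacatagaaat

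CK666 at 24 h opened single sites next to Cebpb, Klf4 and Nfia and closed others at Klf4, Nfia and Nfib, whereas the start sites of all 10 genes had smaller changes. Of 233 windows 230 passed the filter on low counts. By edgeR's quasi-likelihood test, with a call taken where the adjusted p was below 0.01 and the log2 change above 1 in size, 5 windows were gained (2.17%) and 3 were lost (1.30%), while over all 300323 tested windows 1.88% were gained and 1.06% lost. The shares of the members lay near those of all windows, and the median log2 change was 0.14 for the members and 0.02 for all windows. At an adjusted p under 0.05 without a fold limit, 16 member windows passed (6.96%, against 9.50% of all windows). Of the 8 called windows 4 were intronic, 4 were intergenic and 0 contained a start site, which 5.55% of all tested windows and 1.46% of all windows called with CK666 did.

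Downstream of Cebpb, which encodes the early C/EBP activator, the intergenic window chr2:167717193-167718122 lay 28.3 kb from the start site. Its levels were 14.0, 21.6 and 18.3 in control, 53.0, 53.4 and 70.4 with CK666, and 21.9, 18.3 and 21.7 with CytoD. All 3 CK666 libraries stood above all 6 others. The log2 change was 1.68 ± 0.23 (SE) with CK666 (adjusted p = 1.6e-08) and 0.18 ± 0.26 with CytoD (adjusted p = 0.73), and the direct comparison of CK666 with CytoD gave 1.51 ± 0.23 (adjusted p = 3.4e-07).

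The other C/EBP genes had no called window at 24 h with CK666. For Cebpa, the late C/EBP activator, 18 windows were tested, of which 4 had an unadjusted p under 0.05, and for Cebpd, the partner of Cebpb in the early phase, 4 were tested, of which 2 did. DESeq2 called 0 at either gene.

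Klf4, which encodes the early KLF activator, had the most called windows for its size, 3 of 15. The window 1.9 kb upstream of its start (chr4:55534409-55534972, intergenic) had levels of 9.80, 8.73 and 4.82 in control, 36.8, 31.9 and 31.8 with CK666, and 10.3, 6.54 and 8.87 with CytoD. A window 10.3 kb upstream (chr4:55542732-55543297, intergenic) had levels of 50.4, 73.0 and 52.5 in control, 132, 128 and 142 with CK666, and 46.6, 43.8 and 43.9 with CytoD. CK666 libraries stood above all others at both sites. CytoD libraries lay below every control at the farther one, and at the nearer one they overlapped the controls, with 1 slightly above them. The log2 changes with CK666 were 2.12 ± 0.33 (adjusted p = 4.8e-07) and 1.18 ± 0.14 (adjusted p = 7.6e-10). Against CytoD they were 1.96 ± 0.33 (adjusted p = 3.1e-06) and 1.58 ± 0.15 (adjusted p = 9.1e-14).

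The farthest Klf4 window, 46.4 kb upstream (chr4:55578823-55579399, intergenic), moved the other way with both inhibitors. Levels were 57.4, 84.5 and 78.5 in control, 36.3, 36.1 and 27.5 with CK666, and 30.2, 22.9 and 31.0 with CytoD. Every treated library lay below every control. In log2 the change was -1.15 ± 0.19 with CK666 (adjusted p = 3.1e-06) and -1.39 ± 0.20 with CytoD (adjusted p = 1.1e-07). The treatments share their controls, and the direct comparison between them was 0.24 ± 0.22 (adjusted p = 0.53), a difference that was not detected at this depth.

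The later KLF genes had no called window. Klf5 had 25 tested windows, of which 1 had an unadjusted p under 0.05, Klf15 had 23, of which 6 did, and DESeq2 called 0 at both.

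Nfia, whose product opens chromatin at fat cell enhancers, gained 2 windows and lost 1 of 43. The gained ones lay 6.6 kb upstream of the nearest start site, in an intron of the neighbouring gene E130114P18Rik (chr4:97765552-97766093), and 45.4 kb downstream of one, in an Nfia intron (chr4:97925488-97926210). In the first, levels were 12.6, 17.5 and 19.3 in control, 45.9, 40.8 and 39.7 with CK666, and 21.9, 11.8 and 14.3 with CytoD. In the second, they were 12.6, 12.4 and 13.5 in control, 45.9, 37.5 and 32.8 with CK666, and 15.8, 15.1 and 13.3 with CytoD. CK666 libraries were the highest at both sites and the other groups overlapped each other. The log2 changes were 1.33 ± 0.26 (adjusted p = 7.0e-05) and 1.59 ± 0.27 (adjusted p = 6.6e-06), and against CytoD 1.41 ± 0.26 (adjusted p = 3.8e-05) and 1.40 ± 0.27 (adjusted p = 7.0e-05).

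The remaining Nfia window, in an intron (chr4:97864223-97864824), fell with CK666, from 14.7, 26.2 and 28.9 to 8.07, 11.3 and 8.47, with a log2 change of -1.34 ± 0.32 (adjusted p = 0.0017). This call was lost without control replicate 2 or 3 or CK666 replicate 1 or 3 (adjusted p from 0.0112 to 0.0289). The difference from CytoD, -1.20 ± 0.33 (adjusted p = 0.0066), was lost without any CK666 replicate or without CytoD replicate 1 or 3 (adjusted p from 0.0108 to 0.0663), and in DESeq2 (-1.21, adjusted p = 0.0107).

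In Nfib, whose product acts with the other NFI proteins, the intron window chr4:82510731-82511278 fell from 246, 213 and 199 in control to 97.4, 106 and 119 with CK666, and stood at 218, 179 and 180 with CytoD. It was the strongest of the called windows by level. The log2 change was -1.02 ± 0.11 with CK666 (adjusted p = 6.8e-12), just past the fold limit, and it was -0.96 without control replicate 1 and -0.98 without CK666 replicate 1. The Nfic and Nfix loci had no called window among 30 and 18 tested, with 6 and 1 at an unadjusted p under 0.05 and 0 called by DESeq2.

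**Figure D1:**
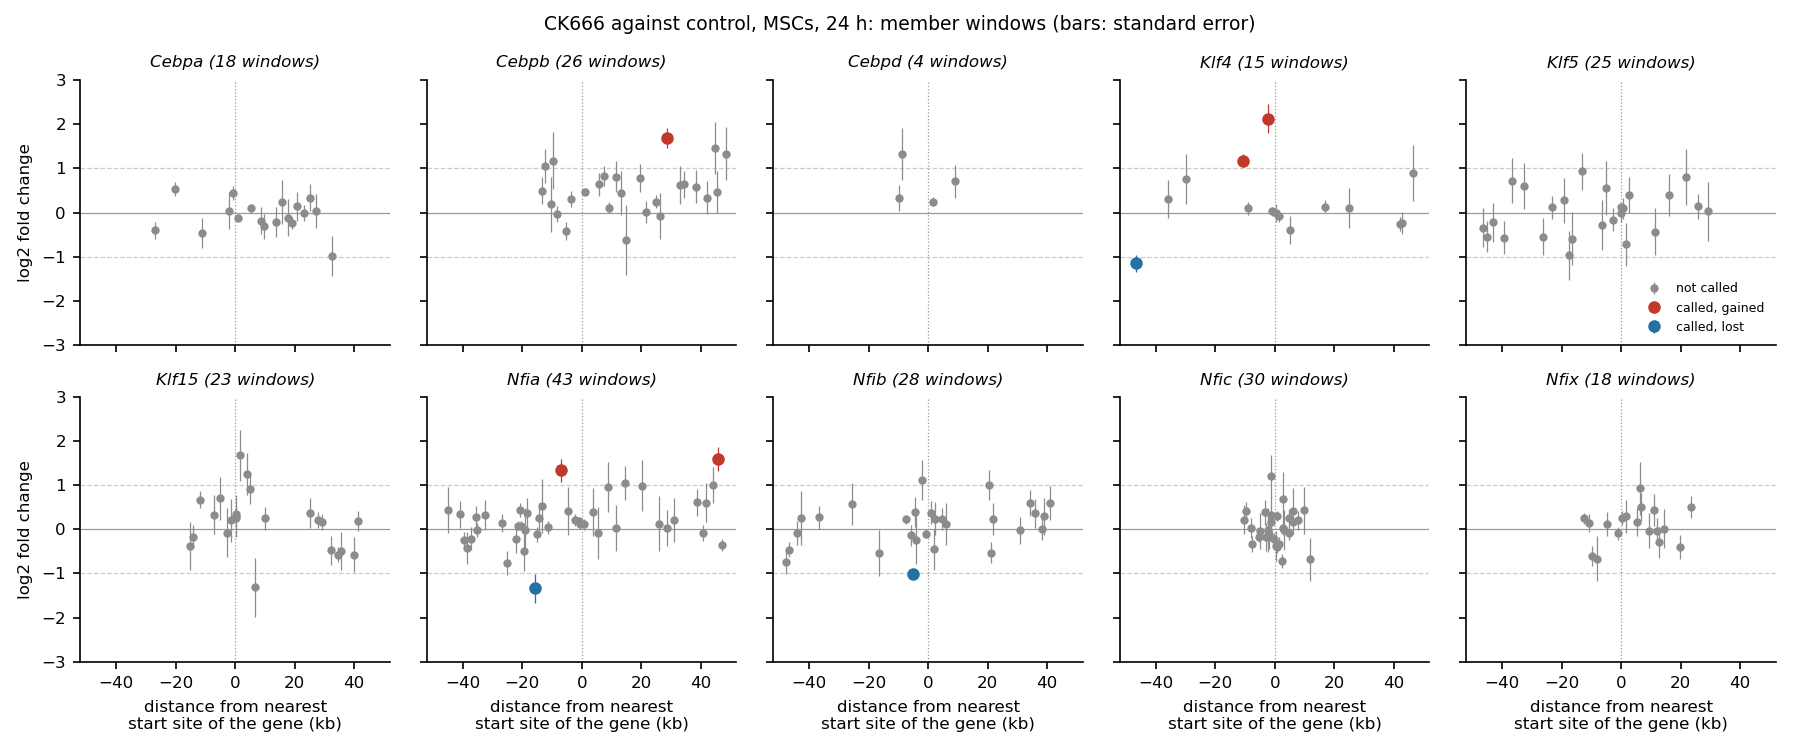
Log2 fold change of CK666 against control at 24 h (y axis) for each tested window of the 10 genes, by distance in kb from the nearest start site of that gene (x axis). Coloured points are the 5 gained and 3 lost windows, which sit at Cebpb, Klf4, Nfia and Nfib and contain no start site. The strongest start-site window of each gene is grey, with changes from -0.12 to 0.47.

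CytoD at 24 h opened 1 window near Nfia and closed 1 each at Cebpb and Klf4. Of 230 tested windows 1 was gained (0.435%, against 0.980% of all tested windows) and 2 were lost (0.870%, against 1.40%). With total counts as the scaling 1 was gained and 1 lost. Without a fold limit 19 passed an adjusted p of 0.05 (8.26%, against 9.88%). The median log2 change was 0.10 for the members and 0.04 for all windows. The shares were below those of all windows.

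Sums of some lists of cell type markers moved with CytoD as well. The summed start-site level of the stromal markers was 752 to 862 in control, 812 to 839 with CK666 and 686 to 744 with CytoD. For 5 fibroblast and matrix genes it was 1309 to 1480, 1123 to 1342 and 1144 to 1250, and for the 4 haematopoietic markers with a window 88.9 to 118, 96.9 to 112 and 121 to 153, in the same order. CytoD libraries thus did not overlap the controls in any of these 3 sums, lower in the first and second and higher in the third. CK666 libraries overlapped the controls in all 3. The stromal genes did not all move alike. Control and CytoD means were 183 and 159 for Pdgfra, 242 and 200 for Pdgfrb and 293 and 272 for Cxcl12. For Vcam1 they were 88.5 and 92.9. In the endothelial list the sums of control (34.7 to 41.3) and CytoD (26.6 to 50.4) overlapped. So did those of the mature adipocyte list, at 108 to 130 and 125 to 177. The part of cell types in the member changes was not tested.

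The Nfia window lay 38.9 kb upstream of the nearest start site, in an intron of E130114P18Rik (chr4:97732569-97733884). Levels were 57.4, 58.3 and 44.3 in control, 40.9, 50.6 and 43.4 with CK666, and 98.1, 134 and 121 with CytoD. The CytoD libraries stood above all others. The log2 change with CytoD was 1.15 ± 0.16 (adjusted p = 2.4e-08), and CK666 against CytoD gave -1.39 ± 0.16 (adjusted p = 4.9e-11).

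The Cebpb window that closed lay 4.8 kb upstream, in an intron of Tmem189 (chr2:167683248-167684119), with levels of 46.2, 45.5 and 53.9 in control, 38.3, 31.9 and 39.7 with CK666, and 21.9, 17.7 and 29.1 with CytoD. All CytoD libraries lay below the rest. With CytoD the log2 change was -1.06 ± 0.22 (adjusted p = 0.00033). It was no longer past the fold limit without CytoD replicate 2 (-0.93), without control replicate 3 or with total counts as the scaling (-0.98).

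Tested directly against each other, CK666 and CytoD differed at 7 of 230 member windows, 5 higher with CK666 (2.17%, against 2.14% of all windows) and 2 higher with CytoD (0.870%, against 1.14%). The 5 were the gained windows of Cebpb, Klf4 and Nfia described above, and the 2 were the Nfia windows at chr4:97732569-97733884 and chr4:97864223-97864824. At an adjusted p under 0.05 with no fold limit 23 of 230 differed (11.6% of all windows did).

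**Figure D2:**
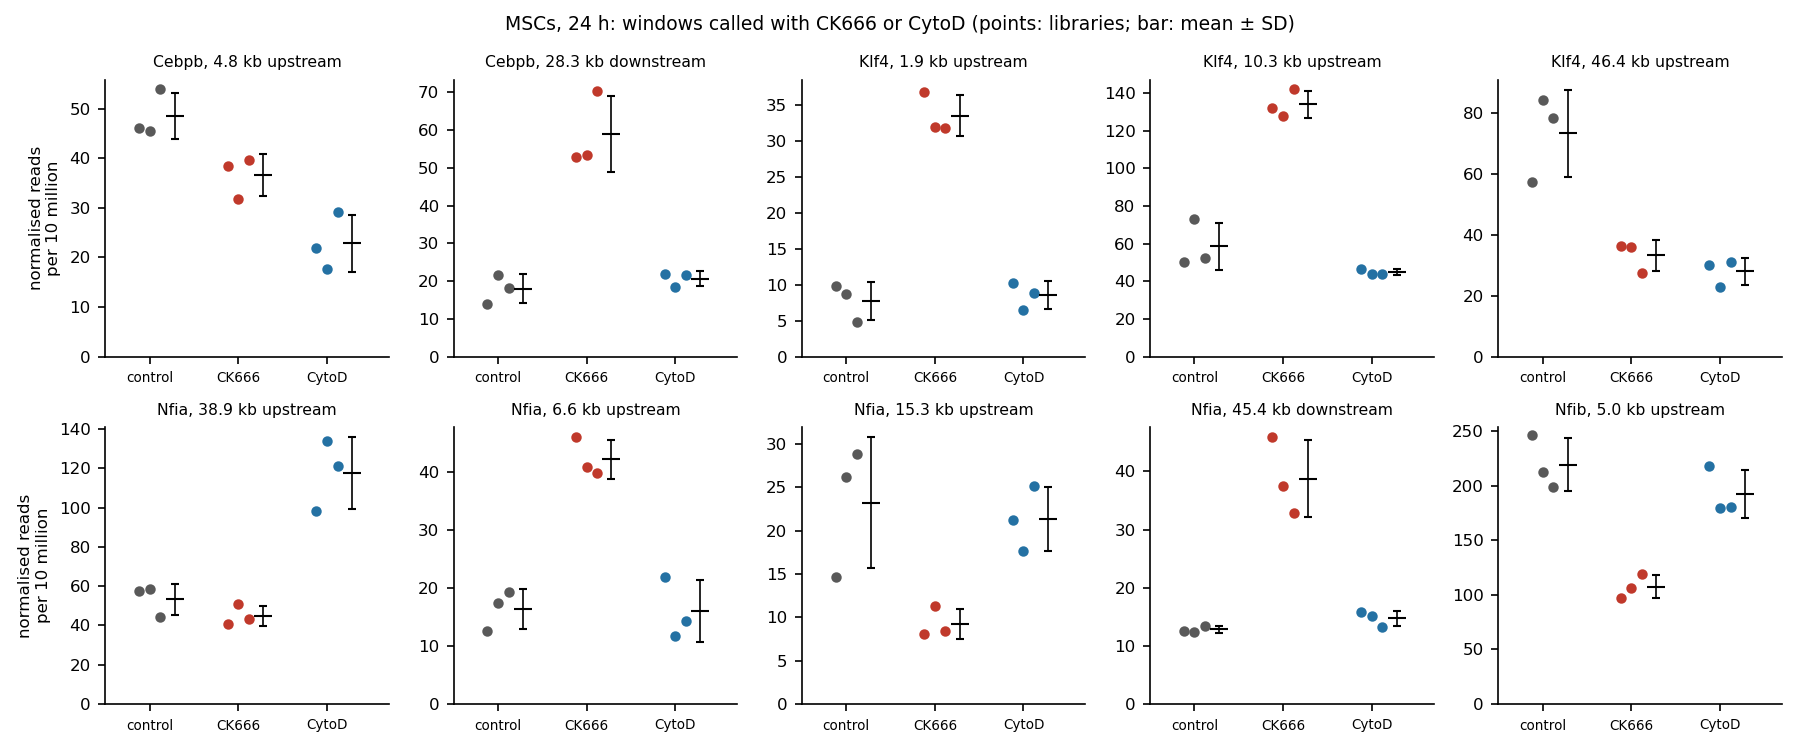
Normalised reads per window, scaled to 10000000 per library (y axis, from 0), in each of the 9 libraries at 24 h (points, by group) for the called windows of the members, with group means and SD. In the windows gained with CK666 the CytoD libraries lie near or below the controls, while the Klf4 window 46.4 kb upstream is lower in both treated groups.

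Start-site windows changed little at 24 h. The strongest start-site window of each of the 10 genes was tested at 24 h, and 0 were called with either inhibitor by edgeR or DESeq2, with 4 at an unadjusted p under 0.05 for CK666 and 3 for CytoD. Their log2 changes ran from -0.12 to 0.47 with CK666 and from -0.38 to 0.18 with CytoD. Cebpb was the one gene whose start-site window had an adjusted p under 0.01 for CK666. Its window (chr2:167686329-167694003) had levels of 242, 276 and 266 in control, 365, 332 and 397 with CK666, and 287, 315 and 291 with CytoD, with log2 changes of 0.47 ± 0.09 (adjusted p = 2.8e-05) and 0.18 (adjusted p = 0.21). CK666 libraries were all above the others, by less than the fold limit. This window is 7675 bp long and takes in the site at chr2:167692717-167693581 that was gained at 4 h. Its rise can therefore not be placed at the start site. For CytoD it was Nfib, which fell from 245, 256 and 287 to 180, 195 and 228, by -0.38 ± 0.10 on the log2 scale (adjusted p = 0.0043). Cebpd differed between the inhibitors by 0.54 ± 0.09 (adjusted p = 7.9e-06), with 355, 335 and 334 for CK666 and 230, 258 and 218 for CytoD around control levels of 236, 320 and 301.

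Already at 4 h, CK666 opened a window at Cebpa and another at Cebpb in MSCs. Of 294 windows 225 passed the filter on low counts in the MSC libraries, and 36 of the 69 that did not were Nfib windows. The 2 gained windows were 0.889% of those tested, against 0.590% of all tested windows. By edgeR 0 were lost, against 0.427% of all windows. DESeq2 also called 0 as lost, and 18 member windows were lower at an unadjusted p under 0.05. At an adjusted p under 0.05 with no fold limit 20 passed (8.89%, against 7.37%), and the median log2 change was 0.07 for the members and 0.00 for all windows.

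The Cebpa window (chr7:35121869-35123826) begins 2.6 kb downstream of the start, in the last bases of the exon. Levels were 37.4, 40.6 and 33.9 in untreated MSCs, 122, 104 and 122 with CK666, 10.04, 13.9 and 9.61 in untreated NIH3T3 cells, and 14.8, 14.7 and 15.3 in NIH3T3 cells with CK666. MSCs with CK666 stood far above every other group. CK666 changed it by 1.63 ± 0.13 on the log2 scale in MSCs (adjusted p = 3.7e-18) and 0.43 ± 0.30 in NIH3T3 cells (adjusted p = 0.37). The difference between these changes was 1.23 ± 0.29 (adjusted p = 0.0042). That call was lost without MSC control replicate 1 or 3, MSC CK666 replicate 1 or 3 or NIH3T3 control replicate 2 (adjusted p from 0.0102 to 0.0406).

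The 24 h table has a longer window over this site (chr7:35121903-35127572), with levels of 226, 216 and 231 in control and 256, 233 and 232 with CK666. Its log2 change was 0.10 ± 0.09 (adjusted p = 0.59). Because the windows differ in length, these values do not compare the times.

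Start sites of mature adipocyte genes moved with the Cebpa window at 4 h. Summed over the 4 of 5 markers with a start-site window, levels were 67.3 to 83.1 in untreated MSCs and 112 to 127 with CK666, and 60.6 to 65.9 and 58.2 to 80.5 in NIH3T3 cells. The fibroblast and matrix genes moved the other way in MSCs, from 1490 to 1600 down to 1206 to 1474, while in NIH3T3 cells their sums of 1225 to 1469 and 1090 to 1343 overlapped. The part of these cells in the result was not tested, and in bulk samples more cells of a type and more open chromatin per cell cannot be told apart. Adipoq, which encodes the fat cell hormone adiponectin, stood at 3.37 ± 0.975 (SD, n = 3) in untreated MSCs and 14.1 ± 2.45 with CK666. At 24 h the sum of the mature adipocyte markers overlapped between control (108 to 130) and CK666 (117 to 158) in MSCs.

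The Cebpb window lay 3.8 kb downstream (chr2:167692717-167693581, intergenic). Levels were 14.7, 8.19 and 10.9 in untreated MSCs, 30.2, 23.2 and 22.4 with CK666, 4.42, 8.40 and 11.4 in untreated NIH3T3 cells, and 6.85, 10.2 and 10.8 in NIH3T3 cells with CK666. In MSCs the groups did not overlap, and in NIH3T3 cells they did. The log2 change in MSCs was 1.15 ± 0.25 (adjusted p = 0.00053). It was lost without control replicate 2 or CK666 replicate 1 (adjusted p = 0.0163 and 0.0143).

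The windows called at 24 h could be followed in the 4 h libraries, which share no library with them. Each of the 8 overlapped a 4 h window, and in MSCs 7 of the 8 moved in the direction of 24 h, 4 of them at an adjusted p under 0.01. The exception was the Nfib window, with a log2 change of 0.10 at 4 h. Its 4 h window (chr4:82509338-82512759) is longer and covers other 24 h windows, so that this value does not compare the times. Of all 7924 windows called with CK666 at 24 h that overlapped a window tested in MSCs at 4 h, 90.4% moved in the same direction, and 32.1% also had an adjusted p under 0.01. In NIH3T3 cells 4 of 8 moved in that direction and 0 passed that limit, against 70.9% and 20.3% of 6974 windows. Neither 4 h comparison passed the fold limit at these sites.

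The 4 were a window of Cebpb, a pair at Klf4 and a window of Nfia. The Cebpb site (chr2:167717527-167718118) went from 14.0, 21.6 and 19.2 to 34.5, 32.7 and 38.1 in MSCs at 4 h, a log2 change of 0.94 ± 0.20 (adjusted p = 0.00064), while NIH3T3 levels of 1.63 to 8.19 in all 6 libraries were low. The Klf4 site 10.3 kb upstream (chr4:55542713-55543339) went from 52.5, 55.5 and 51.9 to 122, 103 and 84.9, by 0.95 ± 0.12 (adjusted p = 6.2e-09). The Klf4 site 46.4 kb upstream (chr4:55578728-55579401) was again lower with CK666, at 76.1, 71.0 and 68.5 against 112, 95.3 and 98.9, by -0.51 ± 0.11 (adjusted p = 0.00074). So in MSCs the Klf4 pair that moved in opposite directions at 24 h did so at 4 h too. In NIH3T3 cells the nearer of the pair rose by 0.89 ± 0.37 (adjusted p = 0.10), much as in MSCs (difference 0.11, adjusted p = 0.91). The farther one changed by 0.48 ± 0.27 there (adjusted p = 0.26). The Klf4 site 1.9 kb upstream rose by 0.92 ± 0.33 in MSCs (adjusted p = 0.076) and 0.94 ± 0.32 in NIH3T3 cells (adjusted p = 0.040).

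At the Nfia site 45.4 kb downstream (chr4:97925528-97926142) levels at 4 h were 15.1, 9.68 and 13.2 in untreated MSCs, 25.2, 21.4 and 26.4 with CK666, 26.9, 23.3 and 28.8 in untreated NIH3T3 cells, and 16.0, 17.6 and 20.8 in NIH3T3 cells with CK666. MSCs and NIH3T3 cells moved in opposite directions without overlap. CK666 changed it by 0.94 ± 0.24 in MSCs (adjusted p = 0.0054) and -0.50 ± 0.23 in NIH3T3 cells (adjusted p = 0.15), and their difference was 1.46 ± 0.34 (adjusted p = 0.0035). The difference was no longer called without MSC control replicate 2, MSC CK666 replicate 1 or 3 or NIH3T3 control replicate 3 (adjusted p from 0.0102 to 0.0225).

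In NIH3T3 cells, CK666 opened windows at Cebpa, Cebpd, Klf15 and Nfic that were low before, and closed 3 windows in Nfia introns. Of 280 tested windows 4 were gained (1.43%, against 1.87% of all tested windows) and 3 were lost (1.07%, against 1.67%). These counts were unsteady, with 6 gained and 2 lost under total counts as the scaling, 3 and 2 in DESeq2, 1 and 2 without control replicate 3, 2 and 3 without CK666 replicate 1 and 6 and 4 without CK666 replicate 2. Over all windows gains outnumbered losses by edgeR, at 6216 to 5549, and the reverse held in DESeq2, at 2591 to 5195. Without a fold limit 36 passed an adjusted p of 0.05 (12.9%, against 13.2%), and the median log2 change was 0.15 for the members and 0.04 for all windows. The shares lay near those of all windows.

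The Cebpa window over its coding exon (chr7:35119867-35121812) rose from 8.03, 10.7 and 4.63 to 27.98, 22.9 and 16.4 in NIH3T3 cells, while MSC levels were 157, 185 and 152 without and 167, 175 and 123 with CK666. NIH3T3 cells with CK666 thus stayed far below either MSC group. On the log2 scale the change was 1.51 ± 0.30 in NIH3T3 cells (adjusted p = 0.00019) and -0.09 in MSCs (adjusted p = 0.65), and the difference of MSC and NIH3T3 changes was -1.56 ± 0.28 (adjusted p = 0.00011). The NIH3T3 call was lost without control replicate 3 (1.22, adjusted p = 0.01003).

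The Klf15 window at an internal start site (chr6:90465903-90466648) rose in NIH3T3 cells from 6.02, 12.3 and 2.14 to 14.8, 22.1 and 22.0, with MSC levels of 69.9, 77.8 and 58.7 without and 110, 84.8 and 76.6 with CK666. KLF15 is a late factor that also drives glucose uptake in fat cells. The log2 change was 1.53 ± 0.34 in NIH3T3 cells (adjusted p = 0.0008) and 0.38 ± 0.12 in MSCs (adjusted p = 0.035). The former was lost without NIH3T3 control replicate 1 or 3 or CK666 replicate 3 (adjusted p from 0.0104 to 0.0336).

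A Cebpd window 8.5 kb upstream (chr16:15878219-15878796, intergenic) rose in NIH3T3 cells from 9.64, 11.0 and 10.3 to 32.0, 19.2 and 20.5, by 1.20 ± 0.27 (adjusted p = 0.0011). An Nfic intron window (chr10:81454688-81455366) rose from 2.41, 3.88 and 2.49 to 22.3, 6.54 and 10.4, by 2.11 ± 0.46 (adjusted p = 0.0006). In both, NIH3T3 CK666 replicate 1, the shallowest library, was the highest. Without it the log2 change was 0.95 (adjusted p = 0.0242) for Cebpd and 1.52 (adjusted p = 0.0516) for Nfic. DESeq2 called 0 of the Nfic windows in NIH3T3 cells. The Cebpd call was also lost without control replicate 1 or 3 (adjusted p = 0.0128 and 0.0104). In MSCs CK666 changed the Cebpd site by 0.63 on the log2 scale at 4 h, and an overlapping window by 1.33 at 24 h. Neither was called.

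The 3 lost Nfia windows lie in introns of this long gene, upstream of one of its internal start sites. At chr4:97831501-97832068 levels fell from 32.1, 24.5 and 21.7 to 7.99, 8.17 and 9.31, and at chr4:97854195-97855260 from 50.2, 33.9 and 48.1 to 15.4, 20.4 and 20.5. The groups were far apart at both. The log2 changes were -1.58 ± 0.28 (adjusted p = 1.7e-05) and -1.18 ± 0.21 (adjusted p = 2.1e-05). The third, chr4:97830131-97830748, fell from 20.1, 21.6 and 20.6 to 6.28, 13.9 and 8.56, by -1.07 ± 0.29 (adjusted p = 0.0069). That call was lost without any control replicate or CK666 replicate 1 or 3 (adjusted p from 0.0216 to 0.0475), with total counts as the scaling, with a GC trend removed and in DESeq2 (adjusted p from 0.0108 to 0.0185).

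**Figure D3:**
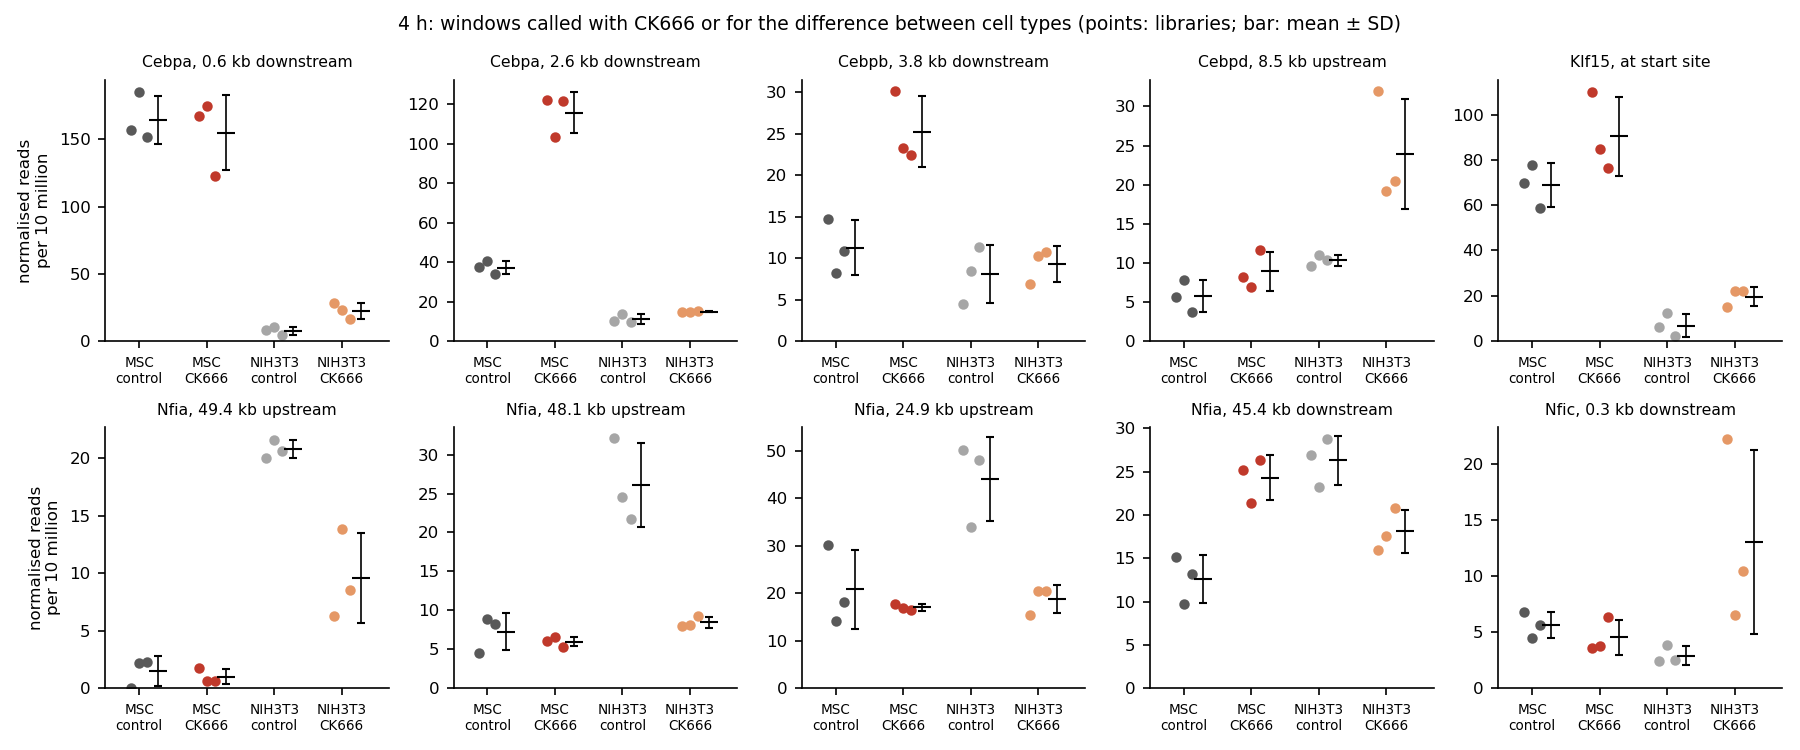
Normalised reads per window, scaled to 10000000 per library (y axis, from 0), in each of the 12 libraries at 4 h (points, by cell type and treatment) for the windows called with CK666 in either cell type or for the difference between them, with group means and SD. The Cebpa window 2.6 kb downstream rises in MSCs, from 33.9 to 40.6 up to 104 to 122, and the Nfia windows fall in NIH3T3 cells.

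The letters of the windows were described with 4 motifs sought on both strands, none of which contains another. They were TTGCNNAA for C/EBP, CCACCC for KLF and SP factors, TGANTCA for AP-1 and CATTCC for TEAD. Letters for NFI, AHR and CREB were sought too and are not described. At 24 h 27.0% of the member windows held the C/EBP letters, against 30.6% of all tested windows, and 53.0% held the KLF letters, against 45.3%. At 4 h the C/EBP letters were instead more frequent in the member windows, at 32.1% against 27.8%, and the KLF letters stood at 51.9% against 40.5%. The AP-1 letters stood at 31.7% against 34.4% at 24 h and 33.4% against 39.9% at 4 h. For TEAD the shares were 39.6% against 40.0% at 24 h and 37.5% against 38.4% at 4 h. Members were longer and richer in GC, at 24 h with medians of 695 bp and 49.7% against 655 bp and 45.9%, which bears on how often letters occur. At 4 h, all 4 windows gained in NIH3T3 cells held the C/EBP letters, which 27.8% of all tested windows hold, and all 3 lost windows held the AP-1 letters, which 39.9% hold. With so few windows these are descriptions. Both C/EBP matches in the printed Klf15 stretch and the AP-1 match in the printed Nfia stretch belong to these windows. Of the 5 windows gained at 24 h with CK666, 1 held the C/EBP letters and 0 the KLF letters. The 2 windows gained in MSCs at 4 h held the C/EBP, KLF and TEAD letters, and 0 held the AP-1 letters. They were long, with a median of 1411.5 bp against 590 bp for all tested windows.

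Counts were also summed over the windows of each gene and tested by edgeR with all other genes treated the same way, a locus being called at an adjusted p under 0.01 with no fold limit. With CK666 at 24 h, Cebpb was the 1 called locus of 10 (13.6% of all loci were called), at 1052, 1043 and 992 in control, 1307, 1258 and 1405 with CK666, and 1134, 1188 and 1270 with CytoD. All treated libraries lay above the controls, and the CK666 and CytoD libraries overlapped slightly. The log2 change was 0.36 ± 0.05 with CK666 (adjusted p = 4.78e-07) and 0.22 ± 0.05 with CytoD (adjusted p = 0.00105), the latter lost without control replicate 3 or CytoD replicate 3. Over the other windows within 5 Mb of Cebpb the median log2 change was 0.07 with CK666 but 0.24 with CytoD, as large as that of the locus. With CytoD, the Nfia locus was called too, at 2312, 2403 and 2448 in control and 2674, 2841 and 2625 with CytoD, by 0.18 ± 0.04 (adjusted p = 0.000478, with a median of 0.04 around it), so that 2 of 10 loci were called (16.9% of all). Between the inhibitors 2 of 10 differed (20.1% of all), Cebpd by 0.46 ± 0.09 (adjusted p = 6.91e-05) and Klf4 by 0.24 ± 0.05 (adjusted p = 0.000774), both higher with CK666. The Klf4 difference was lost without CK666 replicate 1 or CytoD replicate 2.

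At 4 h in MSCs 3 of 10 loci were called (11.0% of all). Cebpb went from 858, 879 and 791 to 1032, 1011 and 988, by 0.27 ± 0.05 (adjusted p = 2.06e-05). Cebpa rose by 0.20 ± 0.04 (adjusted p = 0.000375), from 1271, 1317 and 1241 to 1481, 1486 and 1410. Klf15 rose by 0.22 ± 0.06 (adjusted p = 0.00664), a call lost without control replicate 1 or 3 or CK666 replicate 1 or 2. In both MSC experiments, then, the Cebpb locus was higher in every CK666 library than in any control.

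In NIH3T3 cells 4 of 10 loci were called (29.1% of all). Klf15 rose from 116, 115 and 85.2 to 189, 156 and 220, by 0.84 ± 0.14 (adjusted p = 1.07e-05), and Nfic rose by 0.23 ± 0.06 (adjusted p = 0.00351). Nfia fell by 0.27 on the log2 scale (SE 0.05, adjusted p = 6.13e-05), and Klf5 fell by 0.23 (SE 0.06, adjusted p = 0.00198). The Nfic call was lost without control replicate 1 or 3 or CK666 replicate 1, and the Klf5 call without control replicate 1 or CK666 replicate 3. The surroundings of both moved with them, with a median log2 change within 5 Mb of 0.34 at Nfic and -0.18 at Klf5, against 0.14 at Klf15 and -0.01 at Nfia. The change of Klf15 was smaller in MSCs by 0.62 on the log2 scale, with a difference of -0.62 ± 0.14 (adjusted p = 0.000776), the 1 of 10 loci called for a difference between cell types (16.8% of all). Without NIH3T3 control replicate 3 it was -0.47 and without NIH3T3 CK666 replicate 3 it was -0.46, and neither was called. Among single windows this difference was called at 2 higher in MSCs and 1 lower of 293 (0.683% and 0.341%, against 0.905% and 0.498% of all), or 2 and 2 with total counts as the scaling. The 3 were the Cebpa and Nfia windows above, and 14 (4.78%, against 4.67%) passed an adjusted p under 0.05.

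**Figure D4:**
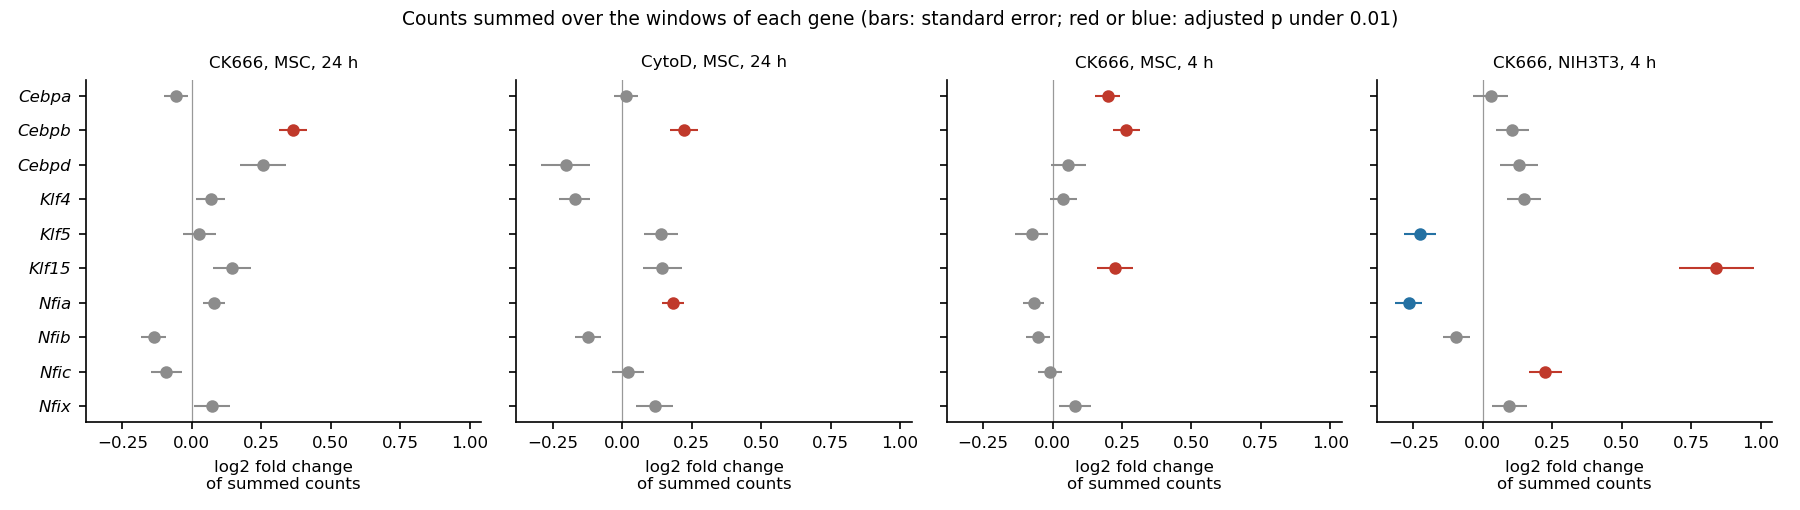
Log2 fold change of counts summed over the windows of each gene (x axis, bars are the SE) for the 10 genes (y axis), in 1 panel per comparison. Cebpb lies to the right of 0 with CK666 in MSCs at 24 h and at 4 h, and Klf15 has the largest shift in NIH3T3 cells, 0.84.

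Untreated MSCs and NIH3T3 cells differed at most of these genes. In log2 of the counts summed per gene, Klf15 (2.12), Cebpa (0.86), Nfic (0.42) and Klf4 (0.38) were higher in MSCs. Nfib (-1.28), Klf5 (-0.83), Nfia (-0.45) and Nfix (-0.39) were lower. Single windows of a gene often went both ways, and the median over windows was -0.50 for Cebpa and -0.02 for Klf4. Of 293 tested windows 45 were higher in MSCs (15.4%, against 18.3% of all tested windows) and 86 were lower (29.4%, against 16.2%), or 37 and 110 with total counts as the scaling. Without a fold limit 200 differed at an adjusted p under 0.05 (68.3%, against 53.0%), and the median log2 difference was -0.51 for the members and -0.02 for all windows. A difference in chromosome copies or in strain between the cells cannot be told apart from one in accessibility.

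Cebpa showed the largest difference at a start site. Its window (chr7:35118063-35119843) stood at 478, 476 and 443 in MSCs and 19.3, 13.2 and 15.3 in NIH3T3 cells, a log2 difference of 4.88 ± 0.14 (adjusted p = 2.0e-46). The coding exon next to it differed by 4.38 ± 0.19 (adjusted p = 2.8e-34). Yet over the 27 Cebpa windows 5 were higher and 5 lower in MSCs. These were 18.5% each, near the 18.3% and 16.2% of all tested windows. CK666 raised the NIH3T3 start-site level to 27.4, 33.1 and 23.8, by 0.85 ± 0.24 (adjusted p = 0.0095), short of the fold limit and far from the MSC level.

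Klf15 was more open in MSCs at 10 of 17 windows (58.8%, against 18.3% of all tested windows). At 0 was it less open (16.2% of all), with 0 lower at an unadjusted p under 0.05 and 0 by DESeq2. The start-site window differed by 3.29 ± 0.24 (adjusted p = 2.4e-21). A window 13.8 kb upstream (chr6:90448272-90448799) stood at 60.4, 49.5 and 54.9 against 4.82, 2.26 and 2.85, and one in an Aldh1l1 intron 34.3 kb downstream (chr6:90501398-90501926) at 37.4, 34.6 and 37.2 against 2.81, 2.26 and 1.42. The log2 differences were 4.07 ± 0.27 (adjusted p = 1.9e-23) and 4.06 ± 0.31 (adjusted p = 3.5e-20).

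Klf4 had 6 windows higher and 2 lower in MSCs of 22 (27.3% and 9.09%, against 18.3% and 16.2% of all tested windows). The window with the largest difference lay 16.6 kb downstream (chr4:55514598-55515125), at 66.5, 77.4 and 65.5 in MSCs and 1.20, 2.26 and 0 in NIH3T3 cells, with a log2 difference of 5.82 ± 0.31 (adjusted p = 3.6e-29). In NIH3T3 cells it was near the lowest level a library can show. Klf5 had 2 windows higher and 2 lower of 16 (12.5% each).

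Nfib was the opposite, with 50 of 75 windows lower in MSCs and 1 higher (66.7% and 1.33%, against 16.2% and 18.3% of all tested windows). An intron window 49.7 kb upstream of the nearest start site (chr4:82555428-82557631) stood at 3.02, 5.59 and 6.40 in MSCs and 94.4, 101 and 116.8 in NIH3T3 cells, with a log2 difference of -4.37 ± 0.22 (adjusted p = 4.1e-31). Another (chr4:82469081-82469603) stood at 18.5, 14.9 and 8.28 against 175, 159 and 187, with -3.64 ± 0.17 (adjusted p = 2.7e-32). The start-site window was nearer, at 288, 303 and 295 against 747, 549 and 706, with -1.17 ± 0.10 (adjusted p = 7.8e-18). Over the gene the sums were 1539, 1495 and 1644 in MSCs and 3864, 3723 and 3790 in NIH3T3 cells.

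Other NFI genes were mixed. Nfia had 6 windows higher and 15 lower of 57 (10.5% and 26.3%, against 18.3% and 16.2% of all tested windows). Nfix had 3 and 6 of 20 (15% and 30%), and Nfic had 7 and 2 of 26 (26.9% and 7.69%). The Nfix start site stood at 52.9, 52.9 and 59.4 in MSCs and 97.2, 120 and 119 in NIH3T3 cells, a log2 difference of -1.03 ± 0.14 (adjusted p = 9.6e-10), which was -0.99 without NIH3T3 control replicate 3. Cebpb had 5 windows higher and 4 lower of 28 (17.9% and 14.3%, near the shares of all windows). Of these, chr2:167726998-167727626, 38.1 kb downstream, was the most different, at 2.27, 2.23 and 3.01 against 25.7, 26.5 and 29.2 (-3.41 ± 0.35, adjusted p = 5.5e-14). Cebpd had 0 called of 5, by edgeR and by DESeq2, with 2 at an unadjusted p under 0.05. Of the loci as a whole 8 of 10 differed (64.7% of all loci), all but Cebpb and Cebpd, from -1.28 for Nfib to 2.12 for Klf15.

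The surroundings of Nfia and Nfib differed in the same direction as these genes. Over the other windows within 5 Mb the median log2 difference between MSCs and NIH3T3 cells was -1.42 for Nfia, where 49.3% were called lower in MSCs, and -1.62 for Nfib, where 57.0% were. Around the other 8 genes the median ran from -0.42 at Cebpb to 0.54 at Klf15. Taken relative to its surroundings, Nfib had 3 windows higher and 15 lower beyond the fold limit, Nfia 10 higher and 4 lower, Klf15 9 and 0, Klf4 6 and 2, and Cebpa 6 and 3. Over the 10 genes, 51 windows were higher and 45 lower on this scale, against 45 and 86 without it.

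**Figure D5:**
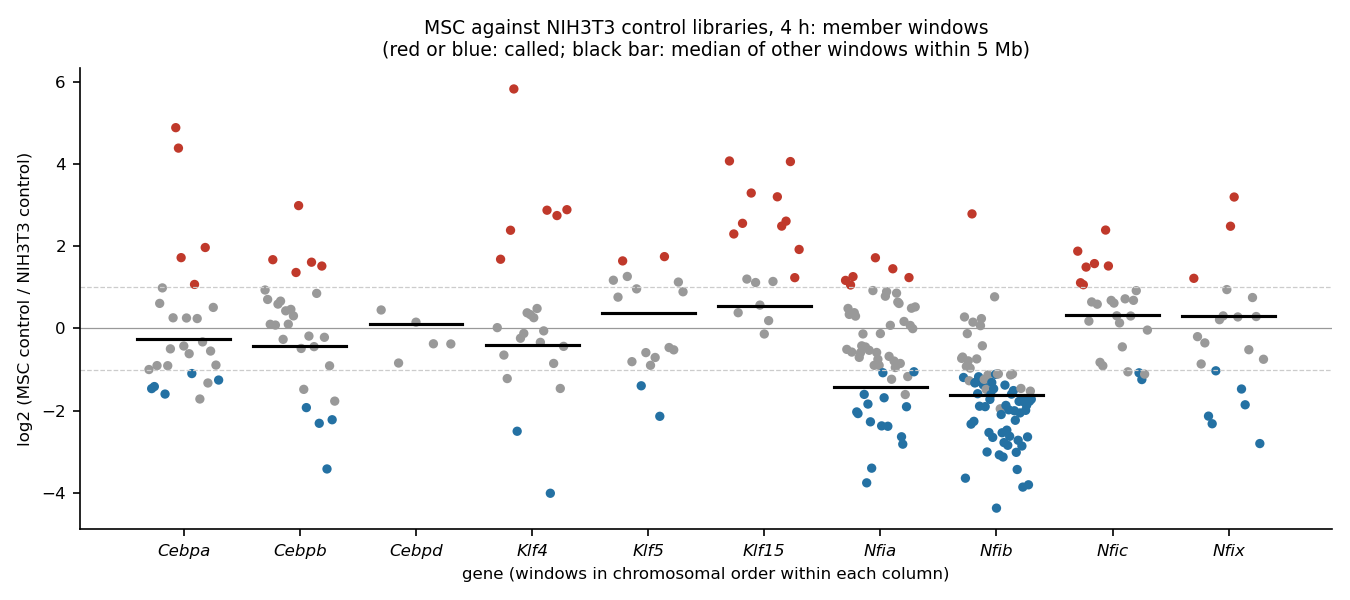
Log2 ratio of MSC to NIH3T3 control levels (y axis) for each tested member window, by gene (x axis), with called windows in colour and a black bar at the median of the other windows within 5 Mb. Klf15 windows lie above 0, and Nfib windows lie around a bar at -1.62.

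Other genes of the same families and of the fat programme were taken from lists. With CK666 at 24 h, of 459 tested windows at 17 genes of the adipogenic transcription network, among them Pparg, Ebf1 and Ppargc1a, 12 were gained and 0 lost by edgeR, and 10 and 1 by DESeq2, with 29 lower at an unadjusted p under 0.05. The gains were 2.61% of the network windows, against 1.88% of all tested windows, and 1.06% of all windows were lost. Of 132 windows at 12 lipid and adipocyte effector genes 4 were gained (3.03%) and 0 lost by both tools, with 4 lower at an unadjusted p under 0.05. Named by size, the gains included windows of Ppargc1a, a coactivator of brown fat genes (2.05 ± 0.49, adjusted p = 0.0018), Ebf1, an early B cell factor that acts in fat cells (1.67 ± 0.35, adjusted p = 0.00024), and Lpl, which encodes lipoprotein lipase (2.78 ± 0.43, adjusted p = 6.2e-07). With CytoD 5 were gained and 5 lost at the network genes, and 7 gained and 1 lost at the effectors, so that 2.18% and 6.06% were called, while 0.980% of all windows were gained and 1.40% lost. At 4 h in MSCs 7 were gained and 1 lost of 385 network windows (3 and 1 by DESeq2), and 3 gained and 0 lost of 118 effector windows (1 and 0 by DESeq2, with 7 lower at an unadjusted p under 0.05). The called shares were 2.08% and 2.54%, beside 0.590% of all windows gained and 0.427% lost. The largest of these effector gains was the Adipoq start site (2.05 ± 0.36, adjusted p = 1.9e-05).

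The other 4 C/EBP genes had 0 called of 43 windows with either inhibitor at 24 h by edgeR and DESeq2, with 11 at an unadjusted p under 0.05 for CK666 and 10 for CytoD. The other 14 KLF genes had 2 gained and 4 lost of 234 with CK666 and 0 gained and 4 lost with CytoD, where DESeq2 gave 0 and 5 and 21 were higher at an unadjusted p under 0.05. These were 2.56% and 1.71% of their windows. The largest of these changes with CK666 was a gain at a Klf14 window 47539 bp from its start (1.64 ± 0.41, adjusted p = 0.0031). A Klf3 window 46.6 kb from its start fell with CK666 by 1.41 on the log2 scale (SE 0.16, adjusted p = 3.7e-11). In NIH3T3 cells 11 network windows were gained and 8 lost of 340 (4 and 6 by DESeq2), or 5.59%, beside 1.87% of all windows gained and 1.67% lost. The largest gain was a Pparg window 16.7 kb from its start (3.16 ± 0.68, adjusted p = 0.00056).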

How the data were processed

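ATAC-seq libraries of mouse cells were prepared from 50000 cells each with the Omni-ATAC protocol. The authors processed the reads with PEPATAC, bowtie2 and MACS2, joined the peaks of all replicates into consensus windows and deposited the read counts per window and library without normalisation. The submitters' processing notes name mm10, and positions were read on GRCm38, the same assembly. Peak merging and any shift for the transposase are already in these counts, with settings not given in the sources used here. The 9 siRNA columns of the 24 h table were left out.

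The 9 libraries at 24 h were fitted together, the 6 libraries of each cell type at 4 h alone, and all 12 for MSCs against NIH3T3 cells and for the difference between cell types in the effect of CK666. Each used edgeR's default filter, TMM scaling and quasi-likelihood test, with Benjamini-Hochberg adjustment over all tested windows or, for counts summed per gene, over all genes. TMM takes most windows as unchanged. The SE is the log2 change divided by the root of the F statistic. Windows were called and named past an adjusted p of 0.01 and a log2 change of 1. Where more than 12 were called, the 6 largest in each direction with a mean of at least 20 counts and no overlap of groups were named, along with the strongest start-site window of each gene and the windows overlapping a called one in the other table by at least 1 bp. Intervals and levels carry counting error and library spread alone. The members, lists and rules were chosen with earlier results of these data known. R 4.3.3, edgeR 4.0.16, DESeq2 1.42.0, limma 3.58.1, Python 3.11.15, numpy 2.4.6, pandas 2.3.3 and matplotlib 3.10.9 were used, and the tests were checked on simulated data. Alternatives were other scalings, no filter, a GC trend removed, DESeq2, a replicate block, other distance and call limits, and leaving out each library.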

Additional observations from a re-analysis of the deposited data

Results flagged for a closer look

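The effect of CK666 at 4 h differed between MSCs and NIH3T3 cells, by edgeR's test of the difference itself, at 3 member windows and 1 locus. For the Nfia intron window chr4:97925528-97926142 the difference, MSC minus NIH3T3, was 1.46 on the log2 scale (adjusted p = 0.0035), with MSC levels higher and NIH3T3 levels lower with CK666. For the Cebpa coding exon window chr7:35119867-35121812 it was -1.56 (adjusted p = 0.00011), with the gain in NIH3T3 cells. For the Cebpa window chr7:35121869-35123826, next to it, it was 1.23 (adjusted p = 0.0042), with the gain in MSCs. Adjacent windows of the same gene thus differed between the cell types in opposite directions. For the counts summed over Klf15 it was -0.62 (adjusted p = 0.000776). The libraries without which 3 of these calls were lost are named with the values above, and the call of the Cebpa coding exon was kept without each library in turn.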

How the results depend on the processing

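In this order, CK666 and CytoD at 24 h, CK666 against CytoD, CK666 at 4 h in MSCs and in NIH3T3 cells, MSCs against NIH3T3 cells, and the difference between cell types, 8, 3, 7, 2, 7, 131 and 3 member windows were called. At an adjusted p under 0.05 with no fold limit the counts were 16, 19, 23, 20, 36, 200 and 14. Within 5 kb of a start site they were 2, 1 and 1 at 24 h, 3 in NIH3T3 cells and 31 between cell types. With every window within 50 kb of a member, also those nearer to another gene, they were 12 in NIH3T3 cells and 5 for the difference. Leaving out 1 library gave 6 to 8, 2 to 4, 6 to 7, 1 to 3, 3 to 10, 115 to 134 and 1 to 6. At the locus level, counts from windows within 5 kb gave 3, 1 and 1 at 24 h, total-count scaling gave 2 for the difference, and leaving out 1 library gave 1 to 2, 1 to 3, 1 to 2, 2 to 3, 2 to 4, 8 and 0 to 3. The cause was not tested.

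Scaling by total counts gave 1 gain and 1 loss with CytoD, 6 and 2 in NIH3T3 cells (3 and 2 by DESeq2, 4 and 4 with its size factors), 37 and 110 between cell types and 2 and 2 for the difference. It put the median log2 change of all windows at -0.25 between cell types, 0.12 with CytoD and 0.15 in NIH3T3 cells. Of the named windows' alternatives, 2460 kept direction and side of the limits, 49 lost a call and 6 gained one. Under these alternatives 0 called values of named windows or loci changed sign, but the balance of counts did turn. Relative to the surroundings within 5 Mb, 51 windows were higher and 45 lower in MSCs than in NIH3T3 cells, and at Nfia 10 and 4. In NIH3T3 cells 1 was gained and 2 lost without control replicate 3, and 2 and 3 without CK666 replicate 1.

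No source used here says whether replicate numbers pair the libraries, and they were not taken as pairs. Deviations from group means correlated between -0.0716 and 0.027 for equal numbers and between -0.05 and 0.0542 for unequal ones. These values cannot decide on a pairing, since single windows carry counting error. A replicate block gave 8, 3, 7, 2, 8, 132 and 2 windows and moved the Cebpa difference at chr7:35121869-35123826 to an adjusted p of 0.0112. Counts under about 20 reads, such as those of Nfic and of MSC-low Nfia and Nfib windows, limit what could be seen.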

Other observations

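An Nfic intron window 1.9 kb downstream of a start site (chr10:81424027-81425183), chosen after its values were seen, was lower with both inhibitors by less than the fold limit. At 24 h its levels were 107, 91.9 and 100.2 in control, 65.6, 47.8 and 68.3 with CK666, and 74.7, 57.6 and 59.6 with CytoD. By edgeR the log2 changes were -0.72 ± 0.15 (adjusted p = 0.00031) and -0.64 ± 0.15 (adjusted p = 0.0021), from shared controls. The overlapping 4 h window (chr10:81424133-81425207) stood at 175, 157 and 135 in untreated MSCs and 113, 118 and 117 with CK666, a log2 change of -0.42 ± 0.09 (adjusted p = 0.00084), and changed by -0.15 ± 0.16 (adjusted p = 0.61) in NIH3T3 cells.

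The early and late effects of CK666 in MSCs came from separate libraries. Over the 201 overlapping pairs of 24 h and 4 h member windows, formed by 173 and 188 windows, 125 had changes of the same sign, and Spearman's rho across pairs was 0.357. Windows of a gene are not independent, some enter several pairs, and no test was made. The values over all overlapping windows are not given, so these do not set the members apart from other genes.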
